A study of Mus musculus with 6 samples.

Results

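The enzymes that lengthen and desaturate long-chain fatty acids were followed in white adipose tissue that had lost the transcription factor YY1 in its adipocytes. The 10 genes were Elovl1, Elovl2, Elovl4, Elovl5, Elovl6 and Elovl7 (elongases), Fads1, Fads2 and Fads3 (front-end desaturases) and Hsd17b12 (a reductase of the elongation cycle). They were chosen by gene name, with earlier results of these data known. Elovl3 was left out of the selection and is given below for comparison only. The 10 genes, of 12393 genes with a probe set that the array annotation assigns to a single gene, had 19 probe sets, and all 19 were kept whatever their brightness.

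Each group held 3 samples, each hybridised to 1 array. Control mice carried Yy1 alleles flanked by loxP sites (YY1flox/flox). The knockout mice, called YY1aKO, carried the same alleles and Cre recombinase driven by the Adiponectin promoter, a promoter of adipocytes, so the other cells of the fat were not targeted. All mice were 8 weeks old, of a mixed C57BL6 and 129 background, and had spent 4 days at 4 ºC. The Cre transgene was present only in YY1aKO, so an effect of Cre and an effect of Yy1 loss cannot be told apart. The labels name the fat as visceral and epididymal in some fields and as subcutaneous in others, and do not say whether each sample is a separate animal, so p-values measure the spread between these samples, which may be technical.

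Elongation adds carbon pairs to an acyl-CoA in the endoplasmic reticulum. An ELOVL enzyme condenses the acyl-CoA with malonyl-CoA, HSD17B12 reduces the product, a HACD enzyme removes water and TECR reduces the remaining double bond. The ELOVL enzyme sets which chains are lengthened, whereas the other steps are shared by all chains, and FADS enzymes place double bonds in polyunsaturated chains between rounds of elongation. In fat this route lengthens palmitate made by fatty acid synthase and remodels dietary polyunsaturated fatty acids.

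Arrays of a group are given in the order of replicates 1, 2 and 3. Yy1 itself read 1785, 1846 and 1596 on the control arrays and 373, 323 and 315 on the YY1aKO arrays. Of 6 adipocyte markers 0 were called with limma and 6 arrays, with a median log2 fold change of 0.10, or -0.27 without control 2. Their summed intensity was 100099, 63178 and 94712 on the control arrays and 77241, 83327 and 78678 on the YY1aKO arrays. Controls 1 and 3 thus lay above every YY1aKO array and control 2 below. Of these sums Retn made 19778, 10247 and 18733 on the control arrays and 3171, 8225 and 8440 on the YY1aKO arrays. Retn, the adipocyte hormone resistin, read lower on every YY1aKO array than on any control (-1.37, limma adjusted p = 0.12, or -1.67 and 0.036 without control 2). Control 2 stood apart, with Pearson correlations across probe sets of 0.928 to 0.955 with the other arrays, which correlated with each other at 0.970 to 0.996. Of 8 measured markers of the epididymis, a male reproductive duct that lies beside epididymal fat, 7 were higher in control 2 than in the mean of the other controls, by 4.56 to 9.31 on the log2 scale. The summed marker intensity was 93339 in control 2, 1046 and 1516 in controls 1 and 3, and 590.4 to 885 in YY1aKO. Sult1e1, the marker not higher in control 2, made 858 and 639 of the sums in controls 1 and 3. It made 606, 392 and 690 of those in YY1aKO, so outside control 2 the sums largely follow that gene. Control 3 also read above control 1 for Gpx5, a gene of the epididymis, with 639 against 39.0, while control 2 read 21047 and the highest YY1aKO array 41.5. Lcn5, Adam7, Defb1 and Cst11 were above control 1 in control 3 by less. Lcn8 (49.2 against 50.6), Ros1 (24.5 against 24.9) and Sult1e1 (639 against 858) were not. Control 2 was also low in adipocyte markers, with a median difference of -1.05 log2 units over 6 genes. Of 6 skeletal muscle markers 1 was called higher in YY1aKO (Acta1, skeletal muscle actin, 3.43, limma adjusted p = 0.0081) and 3 without control 2 (Acta1, Myl1 and Mylpf). Their summed intensity was 578 to 1461 on the control arrays and 2989 to 3730 on the YY1aKO arrays, most of it from Acta1 and Myl1. Ckm (0.10) and Tnnt3 (-0.03) overlapped between the groups, and Myh4 read only 11.6 to 15.3. Of 7 fibroblast and progenitor markers 0 were called with 6 arrays, and 2 were called lower without control 2 (Pdgfra and Pi16). Of 7 endothelial, 4 mesothelial and 7 macrophage markers 0 were called with 6 arrays. Without control 2, 1 endothelial (Tek) and 1 mesothelial marker (Wt1) were called lower and 0 macrophage markers were called, with list medians of -0.39, -0.53 and -0.11. The part of these marker differences in the results below was not tested. In bulk tissue fewer cells of a type and less RNA per cell cannot be told apart. The results of the 10 genes are therefore given with all 6 arrays and without control 2.

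Values are intensities on a linear scale, and differences are log2 fold changes, YY1aKO minus control, with the standard error of limma, a linear model fitted to all 22626 probe sets. A probe set was called where its adjusted p, Benjamini-Hochberg over all of them, was under 0.05. With all 6 arrays 4 of the 19 probe sets were called higher in YY1aKO and 0 lower, against 6.54% and 3.66% of all probe sets, and 7 of the 19 had an unadjusted p under 0.05, beside 6257 of all 22626. The 4 belonged to Elovl1 (3) and Hsd17b12 (1). Without control 2, 12 of the 19 were called higher and 0 lower, against 13.9% and 10.6% of all probe sets, and these 12 were all the probe sets of Elovl1, Elovl4, Elovl5, Elovl6, Fads1 and Hsd17b12. The median log2 fold change over the 19 was 0.64, beside 0.05 over all probe sets, and 0.57 beside 0.02 without control 2. Probe sets of 1 gene are not independent of each other. No member was called with control 3 or any 1 YY1aKO array left out, settings in which 18 to 259 of all probe sets were called.

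In 8 of the 19 probe sets every YY1aKO array lay above every control, against 22.2% of all probe sets, and in 0 every YY1aKO array lay below, against 14.8%. Without control 2 the counts were 13 above and 0 below, against 29.3% and 24.1%. Elovl1, Elovl5 and Hsd17b12 were separated in this way in all of their probe sets with all 6 arrays, and Fads3 in 1 of its 2.

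**Figure D1:**
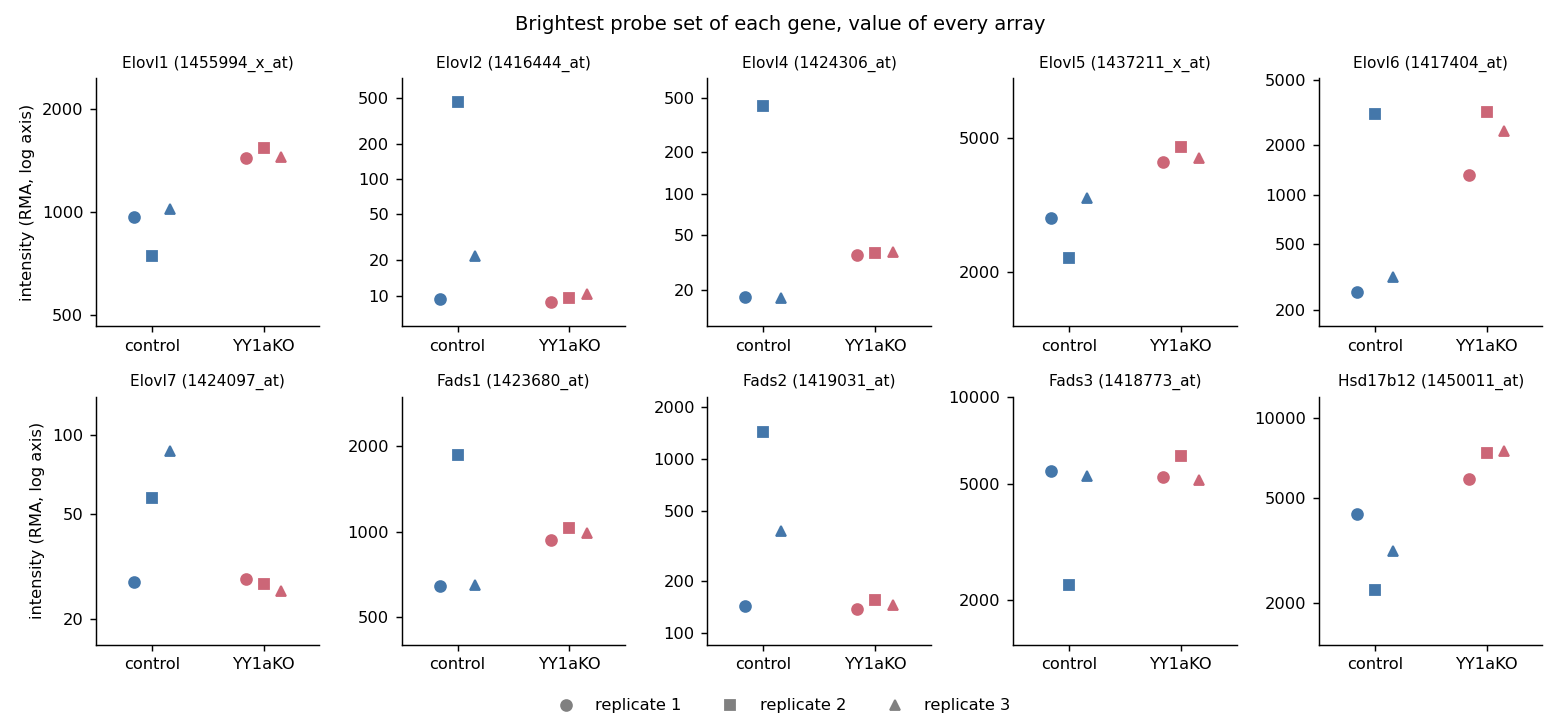
Intensity on each array (log axis, a separate scale per panel) of the brightest probe set of each gene, with controls in blue, YY1aKO in red and the symbol giving the replicate number. Elovl1, Elovl5 and Hsd17b12 have all YY1aKO arrays above all controls, and in Elovl2, Elovl4, Elovl6, Fads1 and Fads2 control 2 (blue square) lies far above controls 1 and 3.

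**Figure D2:**
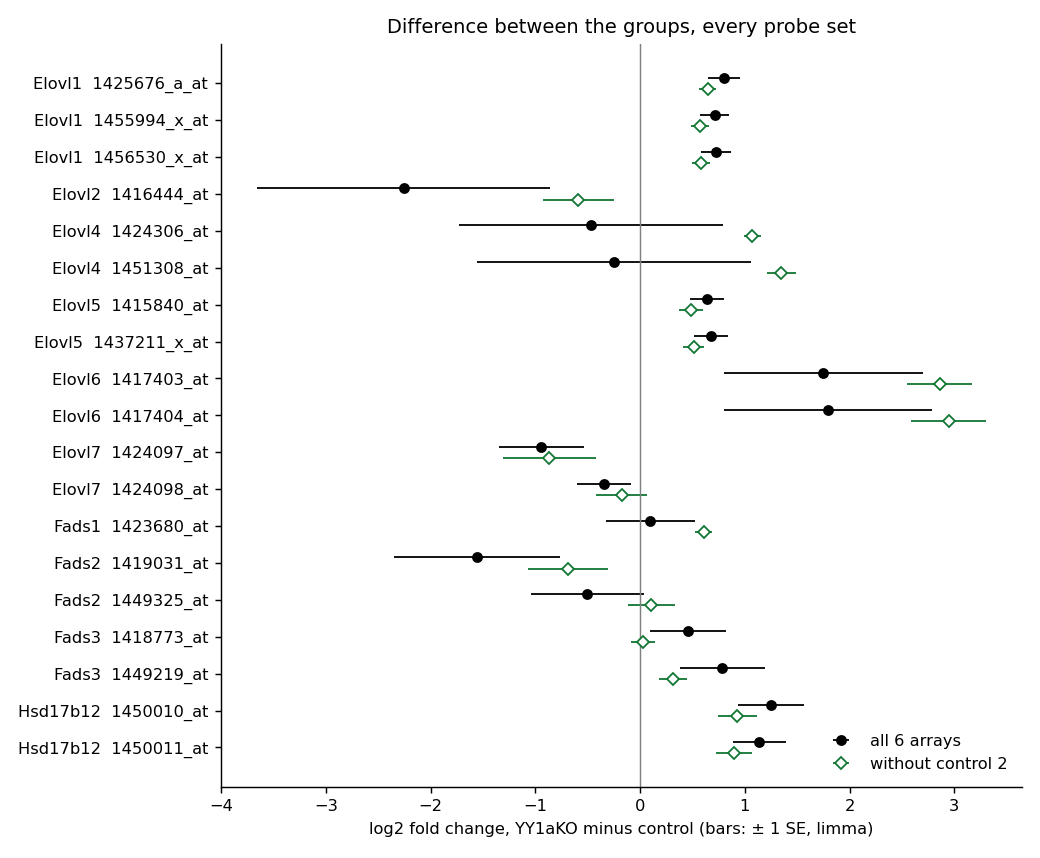
Log2 fold change of each of the 19 probe sets, YY1aKO minus control, with all 6 arrays (black, ± 1 SE from limma) and without control 2 (green diamonds, ± 1 SE). The values of Elovl4 change from -0.47 and -0.25 to 1.07 and 1.35 and those of Elovl6 from 1.75 and 1.80 to 2.86 and 2.95, while those of Elovl1 lie between 0.57 and 0.80 in both fits.

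Elovl1, Elovl5 and Hsd17b12 were the genes whose probe sets all separated the groups. The sequence before an annotated start of each gene is shown because YY1 binds DNA and the 3 genes differed in the same direction. The sequences come from RefSeq promoters of build GRCm38.p6, run 5′ to 3′ on the gene's strand and end 1 base before the start site. Capitals mark CCAAT or its reverse complement ATTGG, the box bound by NF-Y, and CACGTG, an E-box.

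Elovl1, chr4:118427843-118428092, plus strand: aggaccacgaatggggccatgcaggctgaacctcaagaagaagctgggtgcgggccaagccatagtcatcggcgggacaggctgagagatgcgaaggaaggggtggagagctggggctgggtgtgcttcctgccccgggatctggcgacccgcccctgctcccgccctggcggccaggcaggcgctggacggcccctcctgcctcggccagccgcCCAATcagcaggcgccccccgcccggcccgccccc

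Elovl5, chr9:77917115-77917364, plus strand: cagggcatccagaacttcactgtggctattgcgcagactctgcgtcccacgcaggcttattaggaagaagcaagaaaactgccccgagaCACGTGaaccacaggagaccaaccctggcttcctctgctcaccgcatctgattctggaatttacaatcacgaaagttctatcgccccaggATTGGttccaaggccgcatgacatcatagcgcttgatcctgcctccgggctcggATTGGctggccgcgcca

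Hsd17b12, chr2:94157910-94158159, minus strand: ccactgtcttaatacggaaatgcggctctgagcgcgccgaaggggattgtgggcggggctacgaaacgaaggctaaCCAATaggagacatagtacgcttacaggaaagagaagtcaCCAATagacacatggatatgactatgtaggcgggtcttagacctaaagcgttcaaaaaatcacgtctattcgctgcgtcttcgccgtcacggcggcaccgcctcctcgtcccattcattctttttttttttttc

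For Elovl1, RefSeq gives a second promoter at chr4:118429451-118429750, which holds no CCAAT and is not shown. In the sequences shown the CCAAT letters began at position -35 from the start in Elovl1, at -71 and -17 in Elovl5, and at -174 and -134 in Hsd17b12. Promoters of 9 of the 10 genes were matched, 11 promoters in all, with Fads1 unmatched, and each was searched on both strands over 300 bases (250 before the start and 50 after). CCAAT was found in 5 of the 11 promoters (of Elovl1, Elovl4, Elovl5, Fads3 and Hsd17b12), against 37.4% of 32851 promoters, and the Sp1 letters GGGCGG in 8, against 35.7%. GGGCGG is made of G and C only, and the GC content of the 11 promoters ran from 51% to 84.7%. The part of base composition in that count was not tested. A short YY1 motif, CCATNTT, was found in 0 of the 11 and in 16.1% of all promoters. Its longer form GCCATNTT, whose matches are also matches of the short one, was found in 0 and in 6.05%, and the sterol response letters TCACNCCAC in 0 and in 1.24%. CACGTG was found in Elovl4 and Elovl5, against 7.15% of all promoters. These are matches of letters within that window and not binding data. Other letters that YY1 may bind were not searched, so 0 matches do not show that a promoter holds no YY1 site.

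Elovl1 makes saturated very-long-chain acyl-CoAs that enter ceramides and other sphingolipids. Its probe set 1455994_x_at read 968, 741 and 1017 on the control arrays and 1437, 1538 and 1449 on the YY1aKO arrays. The YY1aKO arrays lay close together and above every control, and control 2 was the lowest. The log2 fold change was 0.71 ± 0.14 (SE, n = 3 per group), or 1.64-fold, with a limma adjusted p of 0.032. The probe sets 1425676_a_at (0.80 ± 0.15, limma adjusted p = 0.028) and 1456530_x_at (0.73 ± 0.14, 0.033) gave like values. Without control 2 the 3 values were 0.57, 0.65 and 0.58, with adjusted p from 0.0045 to 0.0067. The suffix _x_at marks sets whose probes may also match other transcripts, and all sets of Elovl1 carry it or _a_at. The call was lost without control 3 (adjusted p = 0.069) and without each YY1aKO array (0.108 to 0.137) for 1455994_x_at, and likewise for the others, while the log2 fold changes of the 3 sets over all single-array omissions stayed between 0.57 and 0.89.

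Hsd17b12 encodes the reductase that follows condensation for every chain. Its probe set 1450011_at read 4343, 2240.5 and 3163 on the control arrays and 5917, 7361 and 7521 on the YY1aKO arrays. All YY1aKO arrays lay above all controls, and control 2 was again the lowest control. The log2 fold change was 1.14 ± 0.25 (SE, n = 3 per group), or 2.20-fold, with a limma adjusted p of 0.045, and 0.90 ± 0.17 (adjusted p = 0.015) without control 2. The other probe set, 1450010_at, read 1335 to 3135 on the control arrays and 4337 to 5682 on the YY1aKO arrays, and its difference of 1.25 ± 0.31 was not called (adjusted p = 0.060) with 6 arrays but was without control 2 (0.93 ± 0.19, adjusted p = 0.018). The call of 1450011_at was lost without control 3 (adjusted p = 0.13), without each YY1aKO array (0.11 to 0.17) and with the mean of both probe sets (adjusted p = 0.053). With control 2 and YY1aKO 2 or YY1aKO 3 left out together it had an adjusted p of 0.058 and 0.056, and 1450010_at had 0.0504 with controls 2 and 3 left out and 0.060 in both of the former.

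Elovl5 lengthens polyunsaturated chains such as those made from linoleic and linolenic acid. Its brighter probe set, 1437211_x_at, read 2903, 2207 and 3329.8 on the control arrays and 4236, 4713 and 4359.6 on the YY1aKO arrays, and 1415840_at read 2498, 1954 and 2834 against 3659, 4120.3 and 3447. Neither probe set overlapped between the groups. Neither was called with 6 arrays (limma adjusted p = 0.056 and 0.061), and without control 2 the differences of 0.51 ± 0.10 and 0.49 ± 0.11 were called (adjusted p = 0.017 and 0.027). Without control 2 the call of 1437211_x_at was lost when control 1 (limma adjusted p = 0.057), YY1aKO 2 (0.057) or YY1aKO 3 (0.053) was left out as well, and that of 1415840_at when control 1 (0.095), YY1aKO 1 (0.070) or YY1aKO 2 (0.073) was.

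Elovl6 converts palmitate to stearate and acts on the products of fatty acid synthase. Its probe set 1417404_at read 255, 3089 and 314 on the control arrays and 1319.9, 3191 and 2456 on the YY1aKO arrays. Controls 1 and 3 were low, control 2 was within the range of YY1aKO, and YY1aKO 1 was the lowest of its group. The second probe set, 1417403_at, read 134, 1525 and 172 on the control arrays and 716, 1434 and 1311 on the YY1aKO arrays, so that control 2 lay above all YY1aKO arrays in it. With 6 arrays the differences of 1.80 ± 0.99 and 1.75 ± 0.95 were not called (limma adjusted p = 0.30 and 0.29). Without control 2 they were 2.95 ± 0.36 and 2.86 ± 0.31 (adjusted p = 0.0040 and 0.0030), or 7.70-fold and 7.26-fold, and had the largest size of all 19 probe sets. They remained called in each fit that left out control 2 and 1 further array, with log2 fold changes of 2.67 to 3.31.

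Elovl4 makes ultra-long chains and is known for its roles in retina, skin and testis. Its probe set 1424306_at read 17.5, 431 and 17.4 on the control arrays and 35.9, 36.8 and 37.5 on the YY1aKO arrays, and 1451308_at read 17.4, 412 and 12.9 against 38.8, 36.0 and 39.7. YY1aKO lay above controls 1 and 3 and far below control 2. The direction therefore turned with that array. The differences were -0.47 ± 1.26 and -0.25 ± 1.31 with it (limma adjusted p = 0.85 and 0.93) and 1.07 ± 0.08 and 1.35 ± 0.14 without it (adjusted p = 0.0014 and 0.0028). Both probe sets were dim, with mean levels above those of 28.6% and 27.8% of all probe sets, so how much of these readings is background is not known.

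Elovl2, which lengthens long polyunsaturated chains on the way to docosahexaenoic acid and is known from liver and testis, read 9.26, 458 and 22.0 on the control arrays and 8.75, 9.48 and 10.3 on the YY1aKO arrays. YY1aKO and control 1 were alike, and the difference was not called with control 2 (-2.26 ± 1.40, limma adjusted p = 0.35) or without it (-0.59 ± 0.34, 0.26). Elovl7, an elongase of saturated and polyunsaturated chains, read 27.7, 57.7 and 87.5 on the control arrays and 28.4, 27.2 and 25.6 on the YY1aKO arrays with 1424097_at. Its second probe set, 1424098_at, read 14.3, 27.3 and 25.8 against 17.8, 17.7 and 15.6. In both, control 1 was at or below the level of YY1aKO and controls 2 and 3 above it, and neither was called (adjusted p = 0.20 and 0.45, or 0.21 and 0.66 without control 2). Both were called lower without control 1 (-1.40 and -0.64, adjusted p = 0.025 and 0.035), so the outcome for Elovl7 depends on which control is left out.

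Among the desaturases, Fads1, the delta-5 desaturase that makes arachidonic acid, read 642, 1862 and 649 on the control arrays and 934, 1027 and 989 on the YY1aKO arrays. Its YY1aKO arrays lay above controls 1 and 3 and below control 2. The difference was 0.10 ± 0.42 with 6 arrays (limma adjusted p = 0.91) and 0.61 ± 0.08 without control 2 (1.52-fold, adjusted p = 0.0058). Without control 2 it remained called when any 1 further array was left out, with an adjusted p of at most 0.027.

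Fads2, the delta-6 desaturase that starts the same route, read 142, 1421 and 385 on the control arrays and 138, 154 and 144 on the YY1aKO arrays with 1419031_at, and 74.3, 343 and 125 against 97.1, 117 and 98.0 with 1449325_at. YY1aKO was near control 1 in the first and between controls 1 and 3 in the second. Neither was called with 6 arrays (-1.56 ± 0.79 and -0.50 ± 0.54, limma adjusted p = 0.27 and 0.59) or without control 2 (-0.69 ± 0.38 and 0.11 ± 0.22, adjusted p = 0.25 and 0.78), and the second value turned its sign.

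Fads3, a relative that acts on sphingoid bases, was low in control 2. It read 5548, 2237 and 5365 on the control arrays and 5311, 6267 and 5165 on the YY1aKO arrays with 1418773_at, a difference of 0.46 ± 0.37 (limma adjusted p = 0.47), and 0.03 ± 0.11 without control 2 (adjusted p = 0.89). With 1449219_at it read 540.2, 199 and 523 against 647, 768 and 579, which did not overlap, with a difference of 0.78 ± 0.40 (adjusted p = 0.27), or 0.31 ± 0.13 without control 2 (adjusted p = 0.14). In the RefSeq gene order of mouse chromosome 19 Fads3, Fads2 and Fads1 follow each other with no other protein-coding gene between them. Without control 2, Fads1 was called and its 2 neighbours were not, and the differences between the 3 genes were not tested.

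Control 2 differed from the other controls in more than its epididymal markers. In 8 of the 19 probe sets it lay at least 2-fold above the mean log2 level of controls 1 and 3, against 5.99% of all probe sets, and in 2 at least 2-fold below, against 5.76%. The 8 were those of Elovl2 (5.0 log2 units above), Elovl4 (4.63 and 4.78), Elovl6 (3.45 and 3.33), Fads2 (2.60 and 1.83) and Fads1 (1.53), and the 2 were those of Fads3 (-1.29 and -1.42). Elovl1, Elovl5 and Hsd17b12 lay lower in control 2, with differences of -0.42 to -0.96, a direction shared with all 6 adipocyte markers. The medians of macrophage (-0.94), endothelial (-1.51), fibroblast and progenitor (-0.61) and mesothelial markers (-1.39) were lower there too. That direction was thus not particular to adipocytes. In control 3, Gpx5, Lcn5, Adam7, Defb1 and Cst11 read above control 1, and Lcn8, Ros1 and Sult1e1 did not. Control 3 was also above control 1 in Elovl2 (22.0 against 9.26) and in 1419031_at of Fads2 (385 against 142). The same held for 1424097_at of Elovl7 (87.5 against 27.7), where control 3 was above control 2 (57.7) as well. Elovl4, far higher in control 2, was not above control 1 in control 3 (17.4 against 17.5 and 12.9 against 17.4). The part of epididymal RNA in these readings was not tested. Within YY1aKO the SD of the log2 values was at most 0.21 for every probe set except those of Elovl6 (0.54 and 0.65), and within controls it ran from 0.25 to 2.96.

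**Figure D3:**
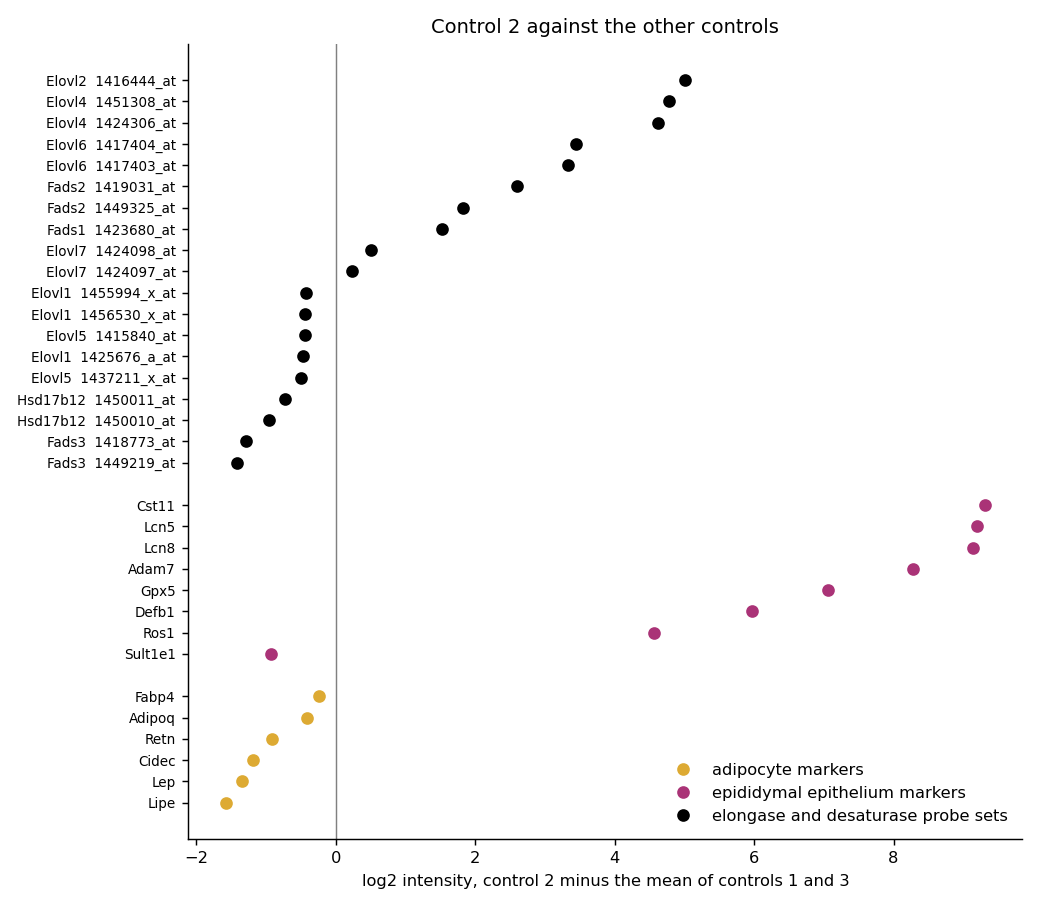
Log2 intensity of control 2 minus the mean of controls 1 and 3, for the 19 probe sets (black), 8 epididymal markers (purple) and 6 adipocyte markers (yellow). Elovl2 and Elovl4 lie 4.63 to 5.0 units above 0, 7 of the 8 epididymal markers lie 4.56 to 9.31 above, and all adipocyte markers lie below 0.

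The other genes of the pathway were taken from lists and counted with the brightest probe set of each gene. By that rule 6.92% of all genes were called higher and 4.04% lower, or 14.5% and 11.5% without control 2. In the rest of the elongation cycle and its electron supply, 1 of 10 genes was higher and 2 were lower (2 and 3 without control 2), with a median log2 fold change of 0.19. Hacd1 and Hacd2, dehydratases of the cycle, fell. Hacd1 read 1455, 707 and 1367 on the control arrays and 325, 232 and 348 on the YY1aKO arrays (-1.91 ± 0.32, limma adjusted p = 0.022), and Hacd2 read 7674, 5628 and 8361 against 2978, 3944 and 4351 (-0.94 ± 0.21, adjusted p = 0.044). Tecr, the reductase of the last step, rose, from 1174, 1465 and 1101 on the control arrays to 1777, 2412 and 1959 on the YY1aKO arrays (0.72 ± 0.16, adjusted p = 0.049), and its second probe set gave 0.70 ± 0.16 (adjusted p = 0.045, or 0.84 and 0.0064 without control 2). None of the 3 genes overlapped between the groups, and without control 2 the values were -2.25, -1.11 and 0.84 (adjusted p = 0.0018, 0.0075 and 0.010). Among the shared steps the reductases Hsd17b12 and Tecr were thus called higher with all arrays, and 2 of 4 measured dehydratases lower. Hacd3 (-0.13) and Hacd4 (-0.50), named after their values were seen to complete the family, were not called in that fit. Hacd4 still read lower on every YY1aKO array than on any control. Without control 2, Hacd4 was called lower (-0.56, limma adjusted p = 0.039) and Hacd3 was not called (0.19, adjusted p = 0.20). With control 3 or any YY1aKO array left out, none of Hacd1, Hacd2, Tecr, Fasn and Acsl5 was called. Without control 1, Hacd1 was called (adjusted p = 0.042), and Hacd2 and Tecr were not. Tecr also lost its call with quantile normalization again (adjusted p = 0.056) and with an intensity trend and a robust prior (0.054).

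**Figure D4:**
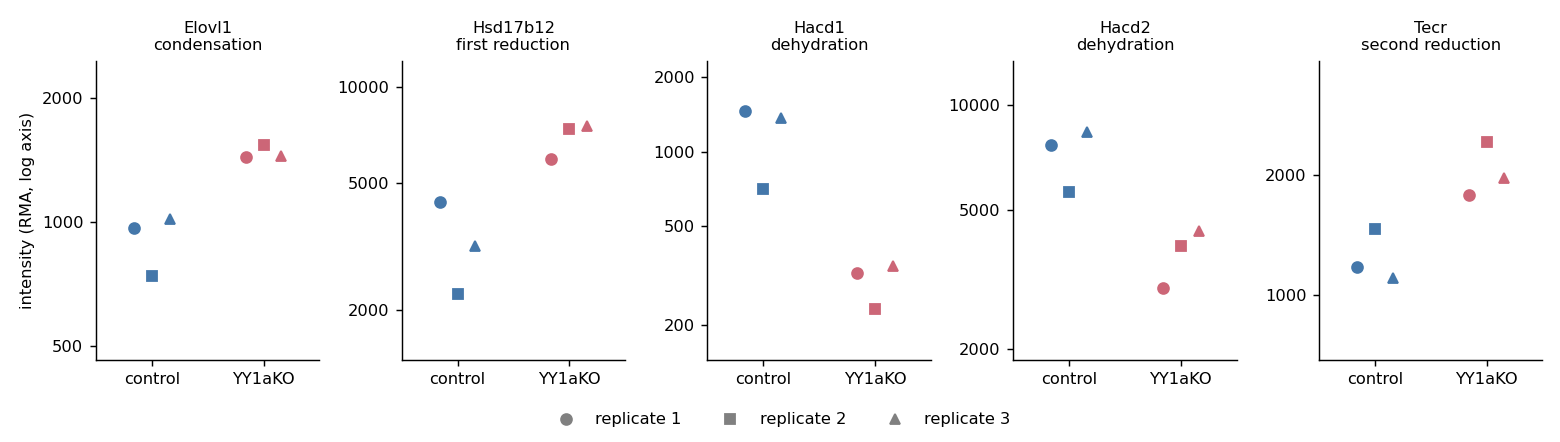
Intensity on each array (log axis, a separate scale per panel) of 1 gene for each step of the elongation cycle and 2 for dehydration, with controls in blue, YY1aKO in red and the symbol giving the replicate number. Elovl1, Hsd17b12 and Tecr lie higher and Hacd1 and Hacd2 lower on all YY1aKO arrays than on any control.

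Elovl3, the elongase induced in fat by cold, read 19.3 to 21.7 on the control arrays and 32.9, 78.7 and 321 on the YY1aKO arrays, which did not overlap but spread widely within YY1aKO. It was not called (2.21 ± 0.79, limma adjusted p = 0.14, or 2.18 and 0.12 without control 2). Of 5 delta-9 and sphingolipid desaturases, counted by their brightest probe set, 0 were called with 6 arrays and 2 were higher without control 2, with a median of 0.71 (0.51 without control 2). Degs1, which puts the double bond in ceramide, was the nearest to a call (0.71 ± 0.18, adjusted p = 0.063, or 0.51 and 0.011 without control 2). Scd1, the main delta-9 desaturase of fat, read 20998 to 28972 over the 6 arrays with its brightest probe set, near the highest value of any probe set (30322), and differed by 0.23 ± 0.12 (adjusted p = 0.27, or 0.12 and 0.33 without control 2). Its dimmer probe set 1415965_at read 3107, 958 and 2397 on the control arrays and 7134, 9104 and 8241 on the YY1aKO arrays, and was called higher (2.08 ± 0.44, adjusted p = 0.039, or 1.57 and 0.0025 without control 2). The 2 probe sets of Scd1 thus disagree in size and call. Scd2, its relative, had 1805, 8086 and 3704 on the control arrays and 4553, 9110.4 and 5955 on the YY1aKO arrays (0.73 ± 0.57, adjusted p = 0.46, or 1.28 and 0.058 without control 2).

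Of 10 genes that supply malonyl-CoA and palmitate, the substrates of elongation, 1 was higher and 0 lower (3 and 0 without control 2), with a median of 0.88. The called gene was Fasn, the fatty acid synthase (1.77 ± 0.33, limma adjusted p = 0.028, or 1.42 and 0.0038 without control 2). Of 11 genes for acyl-CoA synthetases and acyl-CoA binding, 1 was higher and 0 lower (2 and 0 without control 2), with a median of -0.08. It was Acsl5, a long-chain acyl-CoA synthetase, which read 1232, 959.9 and 1169.5 on the control arrays and 1806, 2222 and 1772 on the YY1aKO arrays (0.79 ± 0.14, adjusted p = 0.027, or 0.68 and 0.013 without control 2). Acsl4, which prefers arachidonic acid, differed by -0.08 ± 0.40 with 6 arrays and by 0.39 without control 2 and was called in neither.

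None of 12 regulators of the SREBP, LXR, ChREBP and PPAR families was called with limma and 6 arrays, and without control 2, 2 were higher and 1 lower. Those higher were Nr1h3, given below, and Scap (0.34, limma adjusted p = 0.030), and the lower one was Rxra (-0.49, 0.038). SREBP-1, encoded by Srebf1, is known to drive Elovl6, Fads1 and Fads2. Srebf1 read 3803, 2786 and 3332 on the control arrays and 3101, 4056 and 3763 on the YY1aKO arrays, which overlap (0.14 ± 0.16, limma adjusted p = 0.62, or 0.02 and 0.93 without control 2). Nr1h3, the LXR alpha receptor, read 432, 149 and 341 on the control arrays and 579, 630.2 and 666 on the YY1aKO arrays (1.16 ± 0.39, adjusted p = 0.12), and was called without control 2 (0.70, adjusted p = 0.013).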

How the data were processed

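Total RNA of 6 samples was labelled with biotin and measured on 1-colour Affymetrix arrays, per the labels' protocols. The authors deposited linear intensities, 1 per array for each probe set. The submitters' processing notes name RMA, whose version and settings are not given in the sources used here. RMA equalises the arrays, so it hides a shift common to most genes. The values run from 6.09 to 30322 on a linear scale, and log2 was taken before any test.

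Of 22690 probe sets 64 array controls were left out, and 22626 were tested without a brightness filter. The platform annotation gives 1 gene symbol for 20380, several for 691 and none for 1555 probe sets. limma 3.58.1 in R 4.3.3 (lmFit, eBayes, two-sided) compared 3 YY1aKO with 3 control samples, grouped by their titles, with Benjamini-Hochberg adjustment over all probe sets tested and a threshold of 0.05. The number of arrays limits the precision. The script was tested on simulated data.

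The genes and lists were chosen with earlier results of these data known. Named beside the members are 8 key genes, up to 3 called genes per pathway list, or the 1 with the smallest p where none was called, and markers. Detection calls were not used, and probe sets have no stated genome build. Alternatives are those of the closing section.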

Additional observations from a re-analysis of the deposited data

How the results depend on the processing

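Numbers of calls moved with most choices, while the fold changes of Elovl1, Elovl5, Elovl6, Fasn, Hsd17b12, Hacd1, Hacd2 and Tecr kept their direction in every alternative run on them. The count of 4 members called higher became 7 among the brightest 60% or 40% of probe sets or at an adjusted p under 0.1, 2 with 1 probe set per gene, 1 with the mean of probe sets or without _s_at, _x_at and _a_at sets, which removes Elovl1, 11 with array weights and 0 at an adjusted p under 0.01. Leaving out each replicate gave 0 to 12 members called higher and 0 to 2 lower, and 18 to 5532 probe sets called in all. Control 2 left out together with control 1, control 3, YY1aKO 1, YY1aKO 2 or YY1aKO 3 gave 10, 11, 11, 8 and 9 higher in turn. Of these fits the one without control 1 also gave 4 lower, and array weights, which gave control 2 a weight of 0.119 and control 3 one of 5.69, gave 3 lower. Where 1 control remains it is assumed to vary like the YY1aKO arrays. The count of 2306 probe sets called became 1344 with 1 probe set per gene, 1359 with their mean, 1451 without the suffixed sets, 9395 with array weights, 170 and 4141 at the other thresholds, and 4965, 3628 and 3769 without control 2 and control 1, control 3 or YY1aKO 1. Fewer features are tested in the first 3 settings, and elsewhere the cause was not tested.

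With the replicate number as a block, 16 probe sets and 0 members were called. Same-numbered arrays did not deviate together (correlations of -0.10, -0.08 and -0.10), so the numbers are not taken to pair the samples.

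With control 2 alone left out the direction turned for Elovl4, 1449325_at of Fads2 and Acsl4, and for Fads1 it turned without control 1 or control 3. Elovl2, 1424098_at of Elovl7 and 1419031_at of Fads2 turned where controls 2 and 3 were both left out, 1418773_at of Fads3 without control 2 and YY1aKO 2, and Srebf1 without control 2 and control 3, YY1aKO 2 or YY1aKO 3. Over the fits without 1 array, or without control 2 and 1 further array, the log2 fold change ran from -3.41 to 0.033 for Elovl2, from -1.24 to 1.09 and from -1.15 to 1.56 for the sets 1424306_at and 1451308_at of Elovl4, from -0.64 to 0.25 for 1424098_at of Elovl7, from -0.16 to 0.64 for Fads1, from -2.35 to 0.028 and from -0.997 to 0.48 for 1419031_at and 1449325_at of Fads2, from -0.059 to 0.68 for 1418773_at of Fads3, from -0.42 to 0.60 for Acsl4 and from -0.072 to 0.25 for Srebf1. The positive values of Elovl4 came only from fits without control 2 or with array weights (0.99 and 1.43), and Acsl4 had 0.53 with array weights. Detection calls were not used, so how much of the low readings of Elovl2, Elovl4 and Elovl7 is background is not known.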

Other observations

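Further pathway lists were counted with the brightest probe set of each gene, beside 6.92% of all genes called higher and 4.04% lower (14.5% and 11.5% without control 2). Of 6 genes of ceramide synthesis 1 was higher and 1 lower (2 and 2 without control 2). Sptlc1, a subunit of the serine palmitoyltransferase that starts sphingolipid synthesis, rose from 733, 723 and 709 on the control arrays to 973, 1050.2 and 1040.2 on the YY1aKO arrays (0.50 ± 0.08, limma adjusted p = 0.020), while its other 3 probe sets differed by 0.23 to 0.44 and were not called. Cers5, a ceramide synthase that prefers palmitoyl-CoA, fell from 1280.3, 1234 and 1175 to 805, 944 and 846 (-0.51 ± 0.10, adjusted p = 0.029). Both values were nearly the same without control 2 (0.50 and -0.51). With control 3 or any YY1aKO array left out neither was called, and Cers5 also lost its call without control 1.

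Of 13 genes that use or release polyunsaturated chains, 1 was higher and 2 were lower (3 and 2 without control 2). Pla2g6, a calcium-independent phospholipase, rose by 1.04 ± 0.18 (limma adjusted p = 0.024, or 0.94 and 0.015 without control 2). Mboat7, which places arachidonic acid into phosphatidylinositol, fell from 421, 505 and 409 on the control arrays to 308, 286 and 325 on the YY1aKO arrays (-0.53 ± 0.12, adjusted p = 0.042, or -0.44 and 0.019 without control 2). Ptgs2, the inducible cyclooxygenase, had -0.81 ± 0.14 (adjusted p = 0.024, or -0.80 and 0.015 without control 2) at readings of 25.8 to 55.2, while its second, dimmer probe set differed by -0.02. Lpcat3, which places polyunsaturated chains into phosphatidylcholine, differed by 0.21 ± 0.10 and was not called (adjusted p = 0.25, or 0.18 and 0.28 without control 2). Of 8 peroxisomal genes of the route to docosahexaenoic acid, 0 were higher and 1 was lower (0 and 3 without control 2), and the called gene was Ehhadh (-1.30 ± 0.28, adjusted p = 0.041, or -1.53 and 0.0063 without control 2). With control 3 or any YY1aKO array left out, Pla2g6, Mboat7, Ptgs2 and Ehhadh were not called, and Mboat7 also lost its call without control 1.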
